A study of Drosophila melanogaster with 6 samples.

Results

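CG14419, CG15282, CG42305, CG9759, CG7778, CG9312 and CG5853, fly genes known only by CG numbers, were followed across 6 head RNA samples. They were chosen by their FPKM values, which scale fragments to transcript length and to all mapped fragments and were higher on a high-fat diet (HFD) than on a normal diet (ND) in these same samples. The difference between the diets is therefore given as a description, without a test. They are 7 of the 11922 FlyBase gene identifiers listed, and each was found by its FlyBase symbol on a single row.

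The flies were wild-type Oregon-R virgin females, labelled 5 days old. One group was fed with ND, a yeast, corn and agar food, and the other with HFD, the same food with coconut oil added, and both diets were given for 5 d. Each diet had 3 samples, each pooling the heads and associated tissues of several flies. In pooled tissue, a higher level cannot be told apart from more cells of the type that expresses the gene.

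A CG number is the name of a Drosophila gene model that has not yet been named for a phenotype or a function. CG5853 has the sequence of an ATP-binding cassette transporter of subfamily G, the family of white, scarlet and brown, which carry eye pigment precursors. No role is given here for the other members. Levels were set beside 2 groups of genes with known roles. The first is antimicrobial peptide genes, which the fly immune pathways Toll and Imd switch on. The second is trypsins and other serine proteases secreted by the midgut to digest food protein, which mark gut tissue in a head sample.

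Samples differed beyond diet. ND replicate 3 correlated with the others at r = 0.842 to 0.920 and HFD replicate 2 correlated with the samples other than ND replicate 3 at r = 0.934 to 0.954, while the remaining 4 samples reached 0.971 to 0.979 among themselves (log2(FPKM + 1), across genes, which are not independent replicates). The steps between low FPKM values gave estimates of 5.34 M fragments for HFD replicate 2 and 8.16 to 11.9 M for the other samples. Gut protease genes, of which 29 of 29 were matched, took 4.57%, 4.62% and 0.00109% of the summed FPKM in ND replicates 1, 2 and 3, and 3.24%, 1.45% and 4.78% in HFD replicates 1, 2 and 3. In ND replicate 3, 16 of the 29 were listed at 0. Heat shock genes summed to 334.3 FPKM in ND replicate 3 and to 111.3 to 118.5 FPKM in the other 5 samples. The 11 photoreceptor marker genes, which mark the eye, summed to 21971 to 31272 FPKM, so all 6 samples carried head tissue.

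CG14419 had 77.7, 64.5 and 67.1 FPKM in ND replicates 1 to 3, and 160.6, 165.8 and 176.9 FPKM in HFD replicates 1 to 3. Both diets were tight and did not overlap, with means of 69.8 ± 6.98 and 167.8 ± 8.36 FPKM (SD, n = 3), a ratio of 2.40. On the log2(FPKM + 1) scale the difference was 1.26 with a standard error (SE) of 0.10. In the BDGP6 annotation it is a single-exon gene of 729 nt on chromosome X from 2885186 to 2885914, on the minus strand, with 195 codons. It lies inside the span of kirre, a cell adhesion gene of the opposite strand, and shares 0 exon bases with it.

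CG42305 was the most abundant of the 7, with 129.4, 89.4 and 121.4 FPKM on ND and 337.6, 372.8 and 283.0 FPKM on HFD. Every HFD sample stood above every ND sample, and the lowest HFD value was 2.19 times the highest ND value. The means were 113.4 ± 21.1 and 331.1 ± 45.2 FPKM (SD, n = 3), a log2 difference of 1.55 (SE 0.18). This placed the gene at the 94.7th percentile of mean level on ND and at the 98.1st on HFD.

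CG7778 had 66.1, 57.3 and 66.7 FPKM on ND and 110.9, 130.3 and 121.5 FPKM on HFD, a log2 difference of 0.92 (SE 0.10). CG9312 had 40.4, 33.5 and 40.1 FPKM on ND and 77.8, 68.9 and 71.3 FPKM on HFD, also 0.92 (SE 0.10). Each had a ratio of means of 1.91 and separate diets, but they peaked in different HFD samples, CG7778 in replicate 2 and CG9312 in replicate 1. CG7778 lies on chromosome 2L from 8346620 to 8351112 on the plus strand, with 3 exons in each of 2 transcripts and 269 codons. CG9312 lies on 3R from 13765756 to 13767103 on the plus strand, with 4 exons, a transcript of 807 nt and 211 codons.

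CG5853, the transporter, had 27.0, 31.5 and 26.1 FPKM on ND and 53.6, 52.7 and 53.8 FPKM on HFD. Its HFD samples were the closest of all the members, at 53.4 ± 0.587 FPKM (SD, n = 3) against 28.2 ± 2.90 on ND, and its log2 difference was 0.90 (SE 0.09). It lies on 2L from 9940773 to 9947648 on the minus strand, with 10 exons in each of 3 transcripts and 689 codons.

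CG15282 and CG9759 differed from the other 5 in how far the ND samples spread. CG15282 had 22.2, 12.3 and 5.13 FPKM in ND replicates 1 to 3 and 71.1, 60.0 and 45.9 FPKM in HFD replicates 1 to 3. CG9759 had 15.9, 10.6 and 3.33 FPKM on ND and 41.1, 44.7 and 29.2 FPKM on HFD. In both genes ND replicate 3 was lowest on ND and HFD replicate 3 was lowest on HFD, yet the diets did not overlap. The highest ND value was 4.34 times the lowest for CG15282 and 4.76 times for CG9759, against 1.16 to 1.45 times for the other members.

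The means of CG15282 were 13.2 ± 8.59 and 59.0 ± 12.6 FPKM (SD, n = 3), a ratio of 4.47 and a log2 difference of 2.26 (SE 0.49). The means of CG9759 were 9.95 ± 6.30 and 38.4 ± 8.10 FPKM (SD, n = 3), a ratio of 3.86 and a log2 difference of 2.03 (SE 0.51). These were the highest ratios of the 7 and also the least certain. Their within-diet SDs, 0.72 and 0.75 on the log2 scale, stood at the 93.8th and 94.0th percentiles of the 6474 genes that averaged 5 FPKM or more. The SD of CG42305 stood at the 79.7th percentile and those of the other 4 between the 22.5th and the 34.5th. Counting error was also largest for these 2 genes, since with the shortest annotated transcript ND replicate 3 held an estimated 20.3 fragments of CG15282 and 17.0 of CG9759, while members other than these 2 had at least 221 in every sample.

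CG15282 lies on 2L from 14712471 to 14713298 on the plus strand and has 3 transcripts of 383 to 563 nt and 79 codons. CG9759 lies on 3R from 13607078 to 13609246 on the minus strand and has 3 transcripts of 494 to 1877 nt and 112 codons. Because FPKM divides by transcript length, the level of a gene with transcripts of such unequal length depends on which was assumed.

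**Figure D1:**
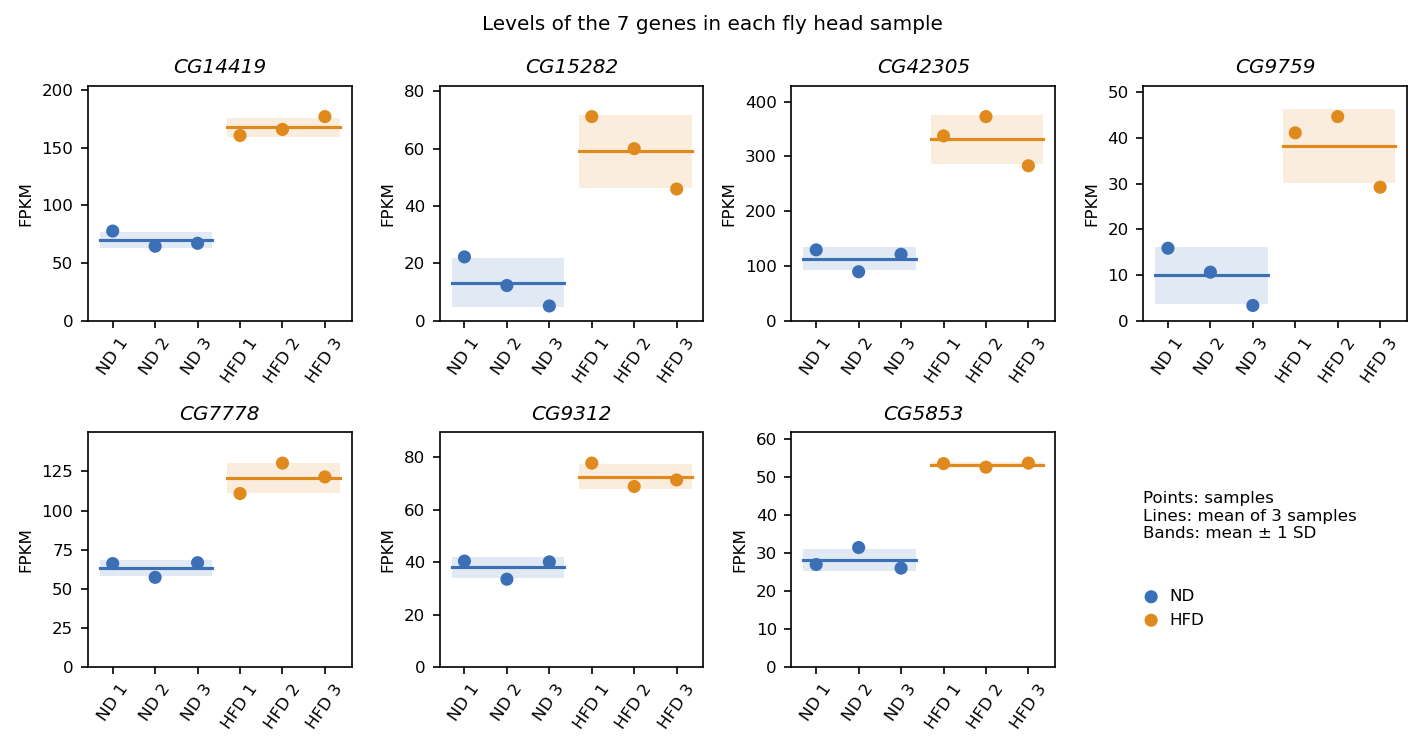
FPKM of the 7 genes in each of the 3 ND and 3 HFD samples, with the mean and SD of each diet. In every gene the lowest HFD sample stands above the highest ND sample, by 1.66 times in CG7778 to 2.19 times in CG42305, and the ND samples of CG15282 and CG9759 are spread most.

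All 3 HFD samples stood above all 3 ND samples in 7 of 7 members, which the choice of the genes fixes and from which nothing is read. Among all 8362 genes tested, those averaging 0.5 FPKM or more, 4.54% did so. This share moved to 7.10% with median-ratio scaling. With a sample left out, fewer have to be separated, and it was 5.64% to 6.57% for most samples. It was 8.73% without HFD replicate 3 and 18.9% without ND replicate 3. Without both ND replicate 3 and HFD replicate 2 it was 22.6%. Why the share was highest in the settings without ND replicate 3 was not tested. The median log2 difference of the members was 1.26, against −0.027 over all genes tested. With limma (Benjamini-Hochberg adjustment), 0.0239% of genes were called higher on HFD and 0.0239% lower at an adjusted p under 0.05, and 3.11% and 3.6% at an unadjusted p under 0.05. Among genes that averaged 5 FPKM or more, 74 of 6474 (1.14%) had a ratio of means over 1.5 and diets that did not overlap, and 38 of the 74 had only a CG number as a name. The members are 7 of those 38, and by ratio they ranked 7 (CG15282), 11 (CG9759), 17 (CG42305), 22 (CG14419), 36 (CG9312), 37 (CG7778) and 38 (CG5853) of the 74.

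Relative to the ND mean, the 3 HFD samples of CG5853 were 1.87 to 1.90 times as high and those of CG14419 2.30 to 2.54 times as high. CG15282 ranged from 3.48 to 5.39 times and CG9759 from 2.94 to 4.49 times, with HFD replicate 3 lowest in both. HFD replicate 3 was lowest in CG42305 too, at 2.50 times, but highest in CG14419. No single HFD sample was highest in all members.

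For 2 members the annotation does not settle which gene the reads came from. All 3 transcripts of CG42305, on 2L from 18812648 to 18813941, are identical to 3 transcripts of CG17325, so 1140 of 1140 exon bases (100%) are shared. The pair encodes separate proteins of 48 and 77 codons from the same RNA, with 0 shared coding bases. CG17325 was listed at 10.8, 17.3 and 12.1 FPKM on ND and 17.4, 21.8 and 17.0 FPKM on HFD, so the deposited values gave CG42305 83.8% to 95.1% of the pair. How the counting divided identical transcripts is not given in the sources used here, and the split is therefore uncertain. The sum of both listed values was 140.1, 106.7 and 133.5 FPKM on ND and 355.0, 394.6 and 300.0 FPKM on HFD, with a ratio of means of 2.76 and diets that did not overlap.

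CG5853 overlaps CG4619, a gene of the opposite strand, over 1853 of its 2623 exon bases (70.6%). The overlap lies in the long non-coding end of a CG4619 transcript, with 0 shared coding bases. The library preparation is not stated to keep strand, so reads of the 2 genes in the overlap cannot be told apart. CG4619 itself was listed at 12.7, 14.7 and 14.0 FPKM on ND and 15.2, 14.4 and 13.7 FPKM on HFD, and by limma it differed by 0.058 on the log2 scale (adjusted p = 0.998).

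**Figure D2:**
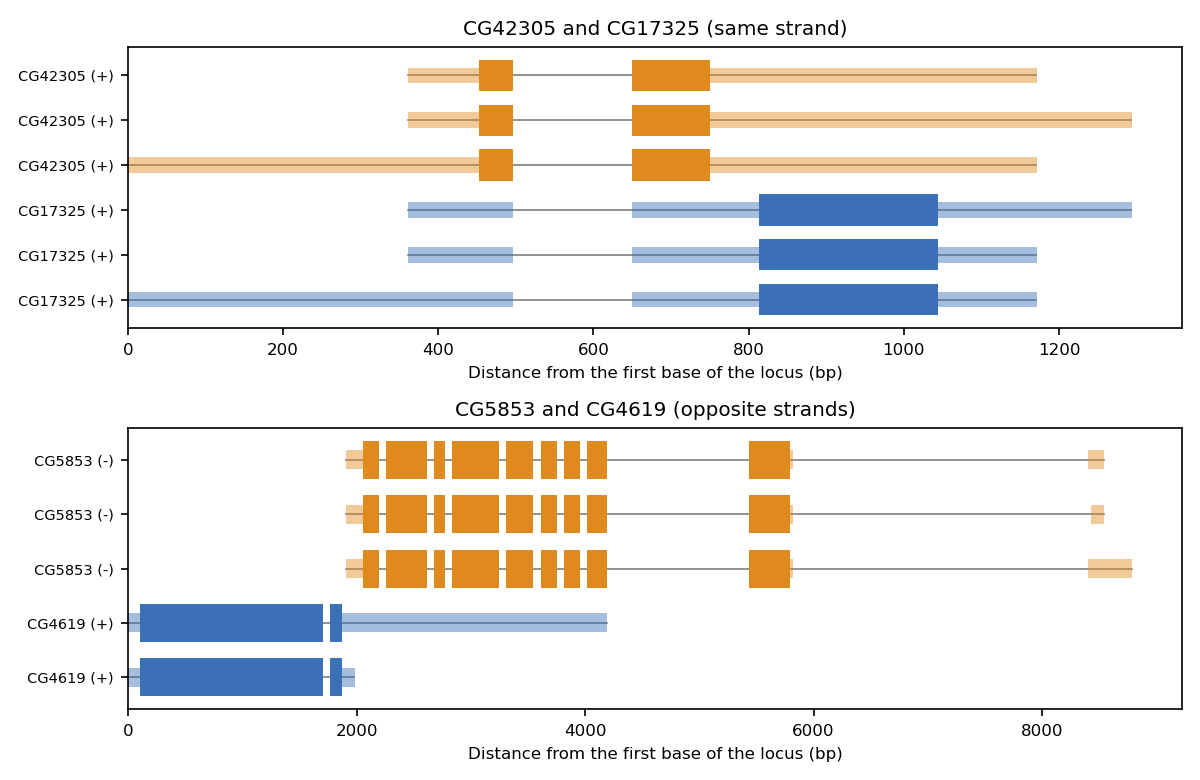
Maps of the annotated transcripts (BDGP6) of CG42305 with CG17325 and of CG5853 with CG4619, to scale, with distance in bp from the first base of each locus. Wide boxes are coding bases, narrow boxes non-coding exon bases, thin lines introns and the sign is the strand. The 3 transcripts of CG42305 match those of CG17325 but their coding boxes lie apart, and the non-coding end of CG4619 runs under the coding boxes of CG5853.

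Samples of one diet differed in gut and immune transcripts, and whether the members followed these differences was tested within diets. The gut score, the mean log2(FPKM + 1) of the 29 gut protease genes, was 6.98, 6.59 and 0.18 in ND replicates 1 to 3 and 6.10, 4.39 and 6.68 in HFD replicates 1 to 3. ND replicate 3 was the sample with almost no gut signal. The immune score, the same mean over the 14 antimicrobial peptide genes matched of 19, was 3.87, 3.65 and 3.24 on ND and 5.61, 6.43 and 4.08 on HFD. Antimicrobial peptide genes summed to 417.4 to 594.8 FPKM on ND and to 2375, 4858 and 712.8 FPKM in HFD replicates 1 to 3, so HFD replicate 3 was the nearest to ND. Of the 12 tested, 12 had a positive log2 difference, 0 passed the adjusted test, 6 had an unadjusted p under 0.05 and 6 had all HFD samples above all ND samples. Gut proteases had 0 of 28 with an unadjusted p under 0.05. Over all genes tested, limma called 0.0239% higher at the adjusted threshold. At an unadjusted p under 0.05, 3.11% were higher and 3.6% lower, and 4.54% had all HFD samples above all ND samples.

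In a limma model with diet and the gut score, 0 of 7 members were called for the gut score slope at an adjusted p under 0.05, where 6.7% of genes were. CG15282 had a slope of 0.21 log2 units per unit of score (SE 0.066, limma adjusted p = 0.122) and CG9759 of 0.22 (SE 0.068, limma adjusted p = 0.117). At an unadjusted p under 0.05 this makes 2 of 7 members, and 28.3% of all genes passed, so the share was near the background. These slopes rested on ND replicate 3. Without it they were −0.039 for CG15282 and −0.17 for CG9759, and the genes called for the slope fell from 558 to 3. The other 5 members had unadjusted p-values of 0.250 to 0.609.

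In the model with diet and the immune score, 0 of 7 members were called, and 0% of genes were, with 2.72% at an unadjusted p under 0.05. The members' unadjusted p-values were 0.237 to 0.998. The slope was 0.38 for CG15282 and 0.45 for CG9759, each with an adjusted p of 1.0. Both slopes depended on single samples. They were 0.22 and 0.28 without ND replicate 3, 0.79 and 0.73 without HFD replicate 2, and 0.97 and 1.30 without HFD replicate 3. Within HFD, CG9759, CG42305 and the immune score were all lowest in replicate 3 and highest in replicate 2. The other members were ordered otherwise there, with CG14419 highest in replicate 3 and CG9312 lowest in replicate 2. Within ND, CG9759, CG15282 and both the immune and the gut score were lowest in replicate 3 and highest in replicate 1. The other members were ordered otherwise within ND, and CG42305 was lowest in replicate 2. These orders are descriptions, with 3 samples in each.

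**Figure D3:**
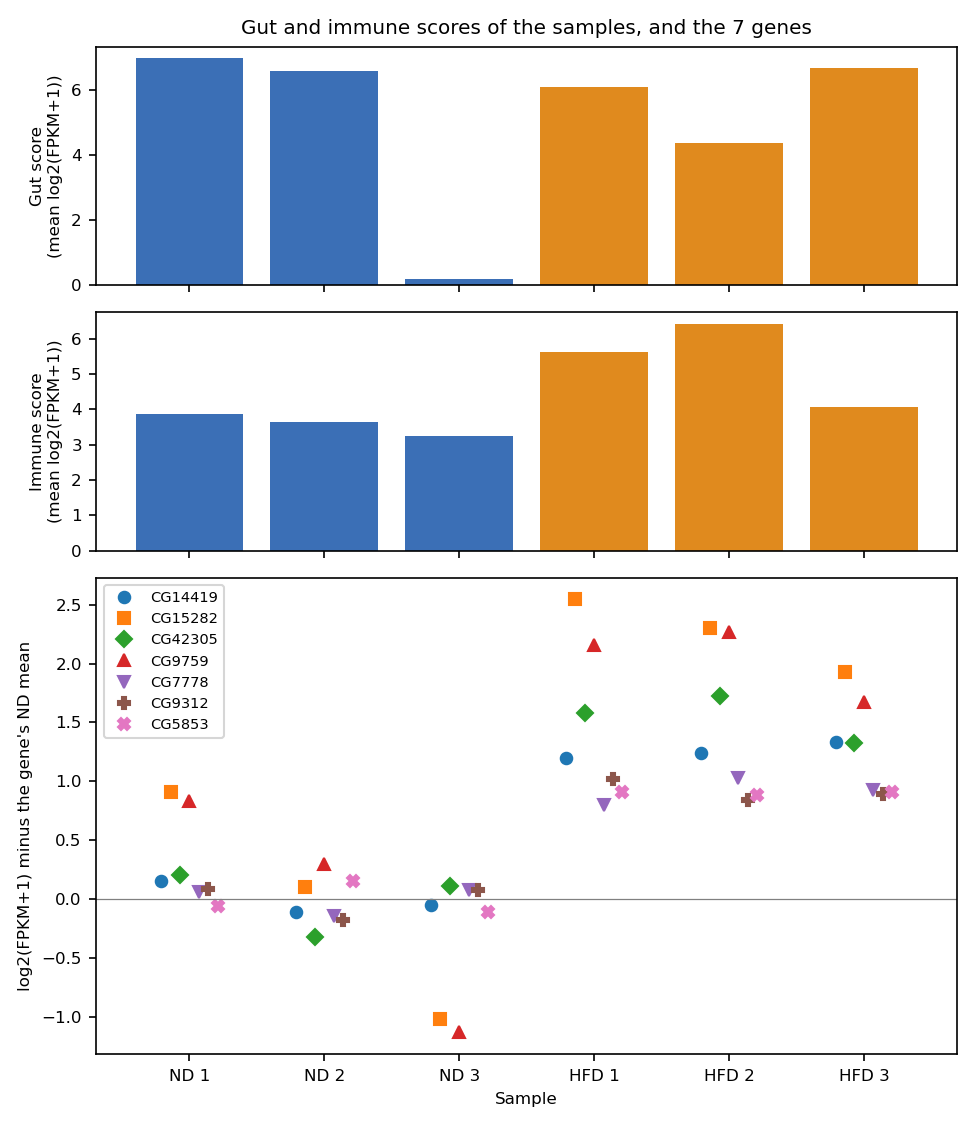
Gut score (top bars) and immune score (middle bars) of each sample, as mean log2(FPKM + 1), above the levels of the 7 genes, as log2(FPKM + 1) minus the gene's ND mean (points). ND replicate 3 has a gut score of 0.18 against 4.39 to 6.98 in the other samples and the lowest CG15282 and CG9759, while the other 5 genes spread less within ND.

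The log2 differences were also fitted with each score as a covariate. CG14419, CG7778, CG9312 and CG5853 had differences of 1.24, 0.94, 0.93 and 0.88 with the gut score and of 1.30, 0.89, 0.94 and 0.90 with the immune score. CG15282 went from 2.26 to 2.02 with the gut score and to 1.58 with the immune score. CG9759 went from 2.03 to 1.79 and to 1.22, and CG42305 from 1.55 to 1.59 and to 1.27. The immune score itself differed between the diets, so its share of a diet difference cannot be told apart from that of diet.

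Leaving out ND replicate 3 lowered the difference of CG15282 to 1.75 and that of CG9759 to 1.47, and moved the other 5 to between 0.85 and 1.60. Without both ND replicate 3 and HFD replicate 2, which stood apart, the differences were 1.24 for CG14419, 1.73 for CG15282, 1.51 for CG42305, 1.35 for CG9759, 0.90 for CG7778, 1.0 for CG9312 and 0.86 for CG5853. Gut protease genes were lowest and heat shock genes highest in ND replicate 3, the sample with the least CG15282 and CG9759, and the part of heat shock or of the sample's quality in these levels was not tested.

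**Figure D4:**
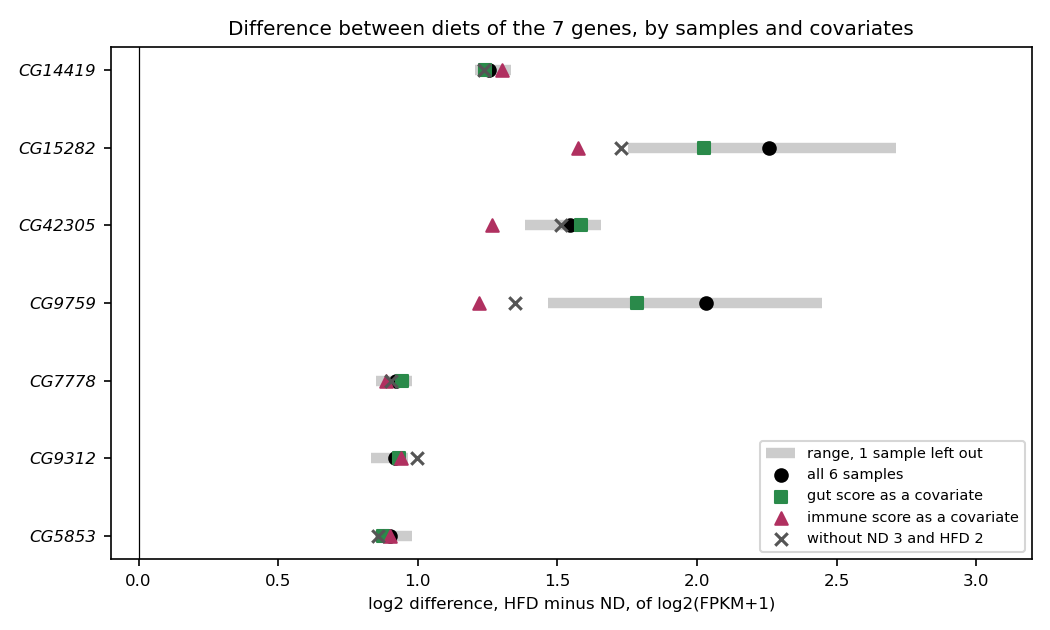
Log2 difference (HFD minus ND) in log2(FPKM + 1) of each gene from all 6 samples (circles), with the gut score (squares) or the immune score (triangles) as a covariate, without ND replicate 3 and HFD replicate 2 (crosses), and its range when 1 sample is left out (grey bars). All lie above 0, CG15282 between 1.58 and 2.71, CG9759 between 1.22 and 2.45 and CG5853 between 0.85 and 0.98.

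The genes next to each member on its chromosome were not used to choose it, and their difference between diets was tested. Over the 2 nearest expressed genes on each side of each member, 28 in all, 16 had a positive log2 difference and the median was 0.032. Their distances from the member ran from 0.446 to 172 kb, so not all were adjacent to it. With limma 0 of 28 were called in either direction at an adjusted p under 0.05. Since only 0.0239% of all genes tested were called in each direction, this count says little. At an unadjusted p under 0.05, 3 were higher and 2 lower, where 3.11% and 3.6% of all genes were. The 3 higher genes were also the 3 whose HFD samples all stood above the ND samples, and they are named for that reason. Of all genes tested, 4.54% had HFD samples that all stood above the ND samples.

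CG34165 lies 0.452 kb after CG15282, where after means at higher coordinates. It had 16.6, 13.0 and 17.2 FPKM on ND and 25.8, 30.4 and 20.2 FPKM on HFD, 0.66 higher on the log2 scale (SE 0.18, limma adjusted p = 0.503). Unlike CG15282, it was not low in ND replicate 3. Ugt36F1, which encodes a UDP-glycosyltransferase, an enzyme class that conjugates small molecules to sugars, lies 5.40 kb after CG42305 and had a log2 difference of 0.53 (limma adjusted p = 0.637). CG3588 lies 33.9 kb after CG14419 and had 30.6, 31.3 and 10.8 FPKM on ND and 50.8, 47.7 and 47.9 FPKM on HFD, where it was 1.12 higher on the log2 scale (limma adjusted p = 0.663). It was low in ND replicate 3 and was called for the gut score slope (limma adjusted p = 0.0222). The 2 lower genes were sqd, an RNA-binding protein gene 25.6 kb after CG9759 (−0.21, limma adjusted p = 0.612), and CG4709, 6.68 kb after CG5853 (−0.46, limma adjusted p = 0.663).

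**Figure D5:**
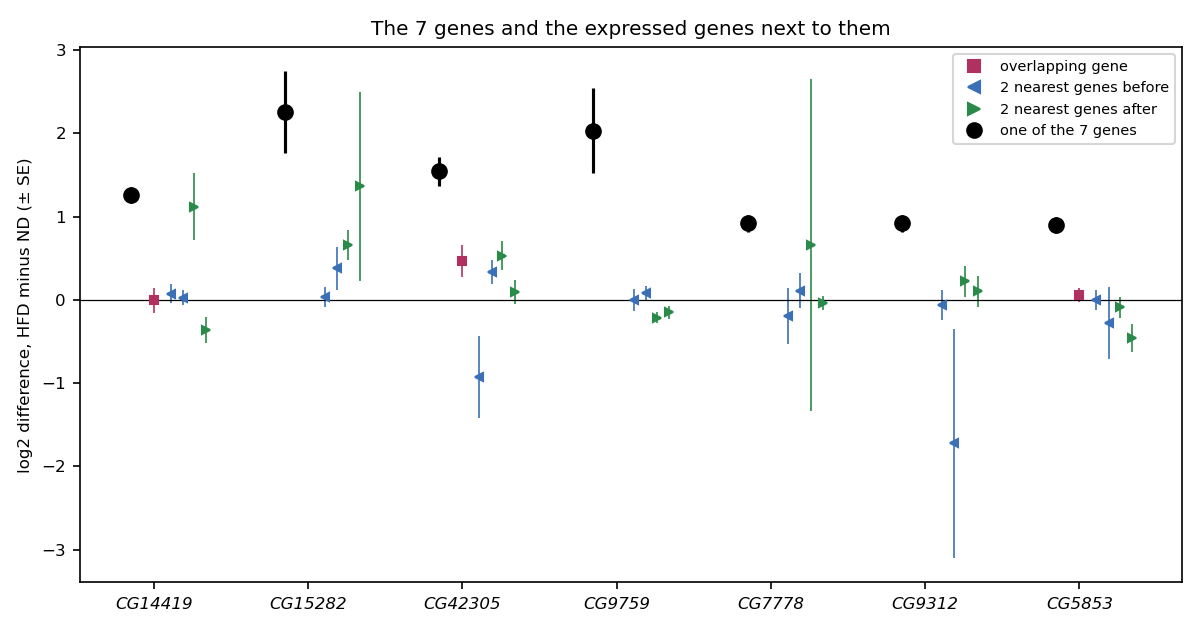
Log2 difference (HFD minus ND, log2(FPKM + 1)) with its SE for each of the 7 genes (circles), the genes that overlap them (squares) and the 2 nearest expressed genes at lower and higher coordinates (left and right triangles), each set placed over the gene's name. The 7 genes lie between 0.90 and 2.26, and the 28 neighbours that do not overlap them have a median of 0.032.

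CG5853 is the only member with a family fixed for comparison. Of the other 13 tested genes of subfamily G, 8 had a positive log2 difference and the median was 0.073. With limma 0 were called, which says little where 0.0239% of all genes were called in each direction. At an unadjusted p under 0.05, 1 was higher and 1 lower, where 3.11% and 3.6% of all genes were. The most abundant, CG31689, Atet and CG17646, had log2 differences of 0.089, 0.073 and 0.35, with adjusted p-values of 0.984, 0.998 and 0.833. The higher one was CG32091, with 9.95, 10.2 and 13.5 FPKM on ND and 15.9, 22.0 and 16.9 FPKM on HFD and was 0.66 higher on the log2 scale (SE 0.17, limma adjusted p = 0.475). The lower one was CG9664 (−0.29, limma adjusted p = 0.730). In CG32091, as in CG5853, all HFD samples stood above all ND samples, which 4.54% of all genes tested did, and in CG9664 all 3 stood below.

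Across the 6 samples, the genes most like each member were found by Pearson r of log2(FPKM + 1) among 6473 other genes averaging 5 FPKM or more. These r values rest on 6 samples that share the diet difference, by which the members were chosen, and they are descriptions. CG15282 and CG9759 were each other's nearest gene (r = 0.991), and CG42376 stood among the 3 nearest of both, at 0.985 and 0.977. CG42305 was nearest to Listericin (0.994), an antibacterial peptide gene of the immune list. Listericin had 109.3, 73.4 and 83.5 FPKM on ND and 340.0, 378.4 and 261.6 FPKM on HFD. It was 1.87 higher on the log2 scale (limma adjusted p = 0.0937), but its likeness to a member chosen by diet picked it, so nothing is read from that p-value. Its immune score slope, 0.25, was the lowest of the tested antimicrobial peptide genes, against 0.80 to 2.02 for the others.

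CG14419 was nearest to CG5704 (0.994) and to CG7778 (0.984). CG7778 was nearest to Ect3 (0.998), which encodes a beta-galactosidase, and to CG1441 (0.989) and the odorant-binding protein gene Obp56d (0.986). CG9312 was nearest to another odorant-binding protein gene, Obp56h (0.983), then to CG42305 (0.981). CG5853 was nearest to Sc2 (0.979), to sug (0.977), a zinc finger gene of sugar metabolism, and to takeout (to, 0.975), a gene of feeding and the circadian clock. The number of genes with r of at least 0.95 was 8 for CG15282 and 7 for CG9759, against 14 to 34 for the other 5. Between members, r ranged from 0.818 to 0.991.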

How the data were processed

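Poly(A) RNA of fly heads was sequenced on Illumina HiSeq instruments for 3 ND and 3 HFD samples, grouped by their labels. Per the labels an RNA kit was used, while the methods name a DNA kit. The authors aligned reads to the fly genome, retained those that mapped uniquely and deposited FPKM per gene (called RPKM in the deposited design text) on 12138 rows. HISAT is named in the submitters' processing notes. How fragments were counted, and on which build and annotation, is not given in the sources used here. Of the rows of 101 repeated identifiers the first was kept. Symbols were matched for 11794 identifiers, and gene positions came from the BDGP6 annotation.

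FPKM is not a count, so log2(FPKM + 1) was compared with limma 3.58.1 (R 4.3.3, functions lmFit and eBayes, trend on) over the 8362 genes averaging 0.5 FPKM or more, with Benjamini-Hochberg adjustment and calls at an adjusted p under 0.05. The added 1 makes changes of low genes look smaller. Score slopes came from the same fit with diet and the score as terms, and genes of a score's own list were left out of its counts. Depth was estimated by fitting whole fragments to low FPKM values of 6033 genes with BDGP6 lengths. Between 61.9% and 68.1% of values lay within 0.15 of a whole number, against 30% for a depth fixed beforehand. The depth was chosen to bring these same values near whole numbers, so 30% is not its chance level. Many values lay further off, so no test on counts was made. The paper calls the samples biological replicates, while the labels do not say whether they came from separate cultures. The p-values set a difference or slope against the spread between these samples. The fits and the depth estimate were tested on simulated data. The noise simulated for the fits was capped below the within-diet SDs of CG15282 and CG9759, 0.72 and 0.75. That test therefore does not cover genes as variable as these. The simulated diet difference was larger than those of the other members. The simulated gut score slope was larger than that of any member. Effects as small as these members' are therefore not covered either. Tables used pandas 2.3.3 and numpy 2.4.6 in Python 3.11.15, and plots matplotlib 3.10.9.

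The members and lists were chosen with earlier results of these data known. Named besides the members were their 2 nearest expressed genes on each side where a test or the samples set them apart, the 3 genes most like each, up to 3 of the most abundant genes of the lists, and genes behind a count of 5 or fewer, which were chosen after their values were seen. Protein relatives and promoter motifs were not analysed here. Alternatives were a pseudocount of 0.1, no filter, a stricter filter of 5 FPKM, quantile normalization, median-ratio scaling, rescaling without the gut and immune lists, limma without trend, the replicate number as a block, each sample left out, each score as a covariate, scores from summed FPKM and summed rows. Leaving out ND replicate 3 and HFD replicate 2 together was added after seeing the data.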

Additional observations from a re-analysis of the deposited data

How the results depend on the processing

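The members were chosen for being higher on HFD in these samples, so the sign of their difference says nothing of stability, and what could change was its size. Of 126 recomputed log2 differences, 2 moved by more than the gene's own within-diet SD. They were CG42305, to 1.27, and CG9759, to 1.22, both with the immune score as a covariate. No filter, the stricter filter, limma without trend, the replicate block and summed rows cannot change a member's estimate, so those values were fixed in advance. The SD of CG15282 was wide, 0.72, so its fall from 2.26 to 1.58 with the immune score was not counted. Leaving out a sample gave medians of 1.20 to 1.34. Counts over all genes depended on the setting. Genes called for the gut score slope (558) numbered 216 with no filter, 371 without trend, 342 with a score from summed FPKM, 3 to 427 with a sample left out, and 0 without ND replicate 3 and HFD replicate 2 (624 at an unadjusted p under 0.05). The count was higher with quantile normalization, at 677, and when rescaled without the gut and immune lists, at 762. Genes higher on HFD (2) numbered 0 with no filter (304 unadjusted), 5 with median-ratio scaling, 27 with the gut score and 0 with the immune score as a covariate (120 unadjusted), 4 without both samples, and 0 to 2 with a sample left out. Genes lower on HFD (2) numbered 1 with no filter, 17 with the gut score and 1 with the immune score as a covariate, 8 without both samples, and 1 to 3 with a sample left out. The cause was not tested. Gut score slopes turned to −0.090 for CG15282 and −0.14 for CG9759 without both samples, and ran from −0.039 to 0.24 and from −0.17 to 0.25 with a sample left out. Immune score slopes ran from 0.22 to 0.97 and from 0.28 to 1.30 with a sample left out. Of 238 recomputed slopes of the members, 29 changed sign and 0 were called.

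Deviations of same-numbered samples from their diet means correlated at 0.308, −0.510 and −0.361 for replicates 1, 2 and 3. The highest correlation between the diets was 0.554, of ND replicate 3 with HFD replicate 2, the samples that stood apart. Deviations from a mean of 3 samples depend on each other, so these values cannot show whether same-numbered samples were matched. In the fit with a replicate block, 195 genes were called for the gut score slope, 0 were higher on HFD (197 at an unadjusted p under 0.05) and 1 was lower, and the immune score slopes of CG15282 and CG9759 were −0.36 and −0.40. With estimated depths of 5.34 to 11.9 M fragments, low values carry the largest counting error.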
